A study of Mus musculus with 6 samples.

Results

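The genes of MHC class II antigen presentation were followed in colitis-associated tumors as 10 named members of 54532 genes listed in the deposited table: the classical chains H2-Aa, H2-Ab1 and H2-Eb1, the peptide exchange chains H2-DMa, H2-DMb1, H2-Oa and H2-Ob, the invariant chain Cd74, the transactivator Ciita and the thiol reductase Ifi30. All 10 were found by gene name, and all 10 were among the 16426 genes with a mean FPKM (fragments scaled to gene length and library size) of at least 0.5 that were tested. RNA-seq was performed on tumor tissue of 3 Tmem173fl/fl mice and 3 Tmem173iΔmye mice, to ask how the loss of STING, the protein encoded by Tmem173, in myeloid cells alters tumors that have already formed.

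Both groups were of the C57BL/6N background and carried Tmem173 flanked by loxP sites. They received azoxymethane (AOM), a colon carcinogen, and 3 cycles of dextran sodium sulfate (DSS), which injures the colon, and were then given tamoxifen (TAM). The Tmem173iΔmye mice also carried Lyz2-CreERT2, which deletes the floxed gene in Lyz2-expressing myeloid cells once TAM is present, while the Tmem173fl/fl mice carried no Cre. The age of the mice at harvest is not given in the sources used here. RNA came from the whole tumor, so the tumor cells, stroma and lymphocytes, in which Lyz2-CreERT2 is not active, contributed to every value, and fewer cells of a type and less RNA per cell cannot be told apart. Nothing in the labels says whether the 3 tumors of a group came from separate litters or were handled apart, and the p-values measure the spread between these tumors alone.

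MHC class II molecules are pairs of an α and a β chain that hold peptides from endosomes and show them to CD4 T cells. Cd74 guards the groove until endosomal proteases cut it, H2-DM then exchanges the remaining fragment for other peptides, and H2-O restrains H2-DM. Macrophages, dendritic cells and B cells carry class II constantly, and many other cells, colon epithelium included, acquire it when interferon-γ acts through Irf1 on Ciita, which joins the RFX, NF-Y and CREB proteins bound at the X and Y boxes of class II promoters.

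The promoters of these genes were searched for the boxes at which Ciita acts. RefSeq windows from 250 bases before to 50 bases after a transcript start (GRCm38.p6) were present for 7 of the 10 members, and H2-Ab1, Cd74 and Ciita had none. The windows were searched on both strands for AGNAAC followed after 2 bases by ATG (N is any base), a spelling of the X box, and for GATTGG, the Y box, which do not overlap each other in the stretches shown. Both spellings were chosen after the windows of these genes had been seen. Of 32851 windows of all genes, 294 (0.895%) held the X box letters, 5292 (16.1%) held the Y box letters, and 5 (0.0152%) held an X box followed within 60 bases by a Y box on the same strand. Those 5 windows belong to H2-Eb1, H2-DMb1, H2-Ob, the class II paralogue H2-Eb2 and Scgb2b20. Stretches from 4 genes are shown 5′ to 3′ on the gene's strand, with matched letters in capitals. They are a classical chain that matched both spellings, a classical chain that matched the Y box letters alone, and H2-Ob and H2-Eb2, which matched both. H2-Eb1 comes from chr17:34305765-34305816 (plus strand), H2-Aa from chr17:34287863-34287920 (minus strand), H2-Ob from chr17:34238807-34238856 (plus strand) and H2-Eb2 from chr17:34325532-34325583 (plus strand), each upstream of the gene's start.
H2-Eb1: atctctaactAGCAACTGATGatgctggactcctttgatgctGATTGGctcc
H2-Ob: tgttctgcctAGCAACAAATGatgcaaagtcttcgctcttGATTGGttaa
H2-Eb2: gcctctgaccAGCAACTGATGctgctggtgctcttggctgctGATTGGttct
H2-Aa: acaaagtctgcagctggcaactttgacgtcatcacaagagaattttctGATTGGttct
The X box letters began 32 bases before those of the Y box in H2-Eb1 and H2-Eb2, 33 bases before in H2-DMb1 and 30 bases before in H2-Ob. H2-Aa and H2-Oa held the Y box letters alone, and Ifi30 held neither. The RefSeq starts of H2-DMb1 and H2-Oa lie 119 and 39 bases after the listed gene starts. The matched stretches of both overlap an annotated exon and are not wholly upstream of the listed gene. The RefSeq starts of H2-DMa lie at -12350 and -9664 bases from the start given in the deposited table, and its windows were not compared with the others. A match is a description of letters and not evidence of binding, and a missing match says only that these letters are not in the window.

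**Figure D1:**
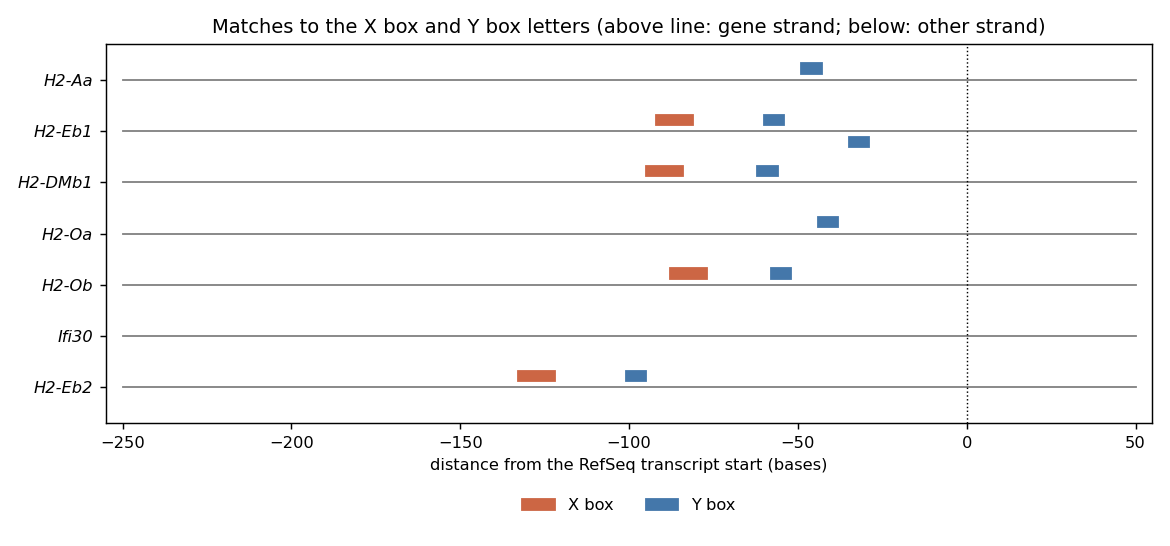
Positions of the X box letters (orange) and Y box letters (blue) in RefSeq promoter windows of 6 members and of H2-Eb2, in bases from the transcript start, with matches on the gene's strand above the line and on the other strand below it. H2-Eb1, H2-DMb1, H2-Ob and H2-Eb2 show X box letters 30 to 33 bases before Y box letters, H2-Aa and H2-Oa show the Y box letters alone and Ifi30 shows neither. The matched stretches of H2-DMb1 and H2-Oa overlap an annotated exon.

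The 6 tumors had similar depth, with 15329810 to 16533732 counts on genes, which gave the classical chains 1040 counts or more in every tumor and H2-Oa as few as 7. Tmem173 itself did not tell the groups apart in whole tumor RNA, at 102.3 to 194.1 CPM (counts scaled to the TMM-normalized library size) in Tmem173fl/fl and 124.3 to 144.6 in Tmem173iΔmye tumors. One tumor, Tmem173iΔmye replicate 1, stood apart by its number of large differences, with 120 tested genes at 3 times or more the level of every other tumor, against 17 to 38 such genes in each of the other 5. By the share of tested genes in which a tumor was the highest it did not, at 24.9% against 26.6% for Tmem173fl/fl replicate 2. Reads of Y-linked genes were found in 3 tumors, namely both replicates 1 and Tmem173iΔmye replicate 2, at 2655 to 3547 counts, and at 2 counts or fewer in the other 3 tumors. The results are therefore also given without Tmem173iΔmye replicate 1, or with the Y-linked reads as a term, where that changes them.

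Class II RNA was abundant in these tumors, and its level differed widely between tumors of 1 genotype. By FPKM, which allows genes to be compared per length, Cd74 was the most abundant member at 346.5 ± 152.2 in Tmem173fl/fl and 911.3 ± 833.4 in Tmem173iΔmye tumors (SD, n = 3 each), and by its mean over all tumors it ranked 40 among all genes listed. The classical chains followed, with means over the 6 tumors of 195.5 FPKM for H2-Eb1, 155.9 for H2-Ab1 and 120.1 for H2-Aa, with ranges that overlap widely. Ifi30 had 64.9 FPKM, H2-DMb1 29.1 and H2-DMa 16.01, while Ciita had 3.27, H2-Ob 1.86 and H2-Oa 0.98. The mean of Ciita rests on Tmem173iΔmye replicate 1 (10.9 FPKM). By group mean in Tmem173fl/fl tumors, H2-Ob (2.27 ± 2.89 FPKM, SD, n = 3) was above Ciita (1.62 ± 1.17 FPKM, SD, n = 3). That rests on replicate 1 (5.58 FPKM for H2-Ob, 2.97 for Ciita). In replicates 2 and 3 H2-Ob (0.890 and 0.322 FPKM) was below Ciita (0.939 and 0.944 FPKM). The ranges over the 6 tumors overlapped between every pair of neighbours in this order. Members took between 0.0632% and 0.155% of all counts in Tmem173fl/fl tumors and 0.117%, 0.131% and 0.507% in Tmem173iΔmye replicates 3, 2 and 1.

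**Figure D2:**
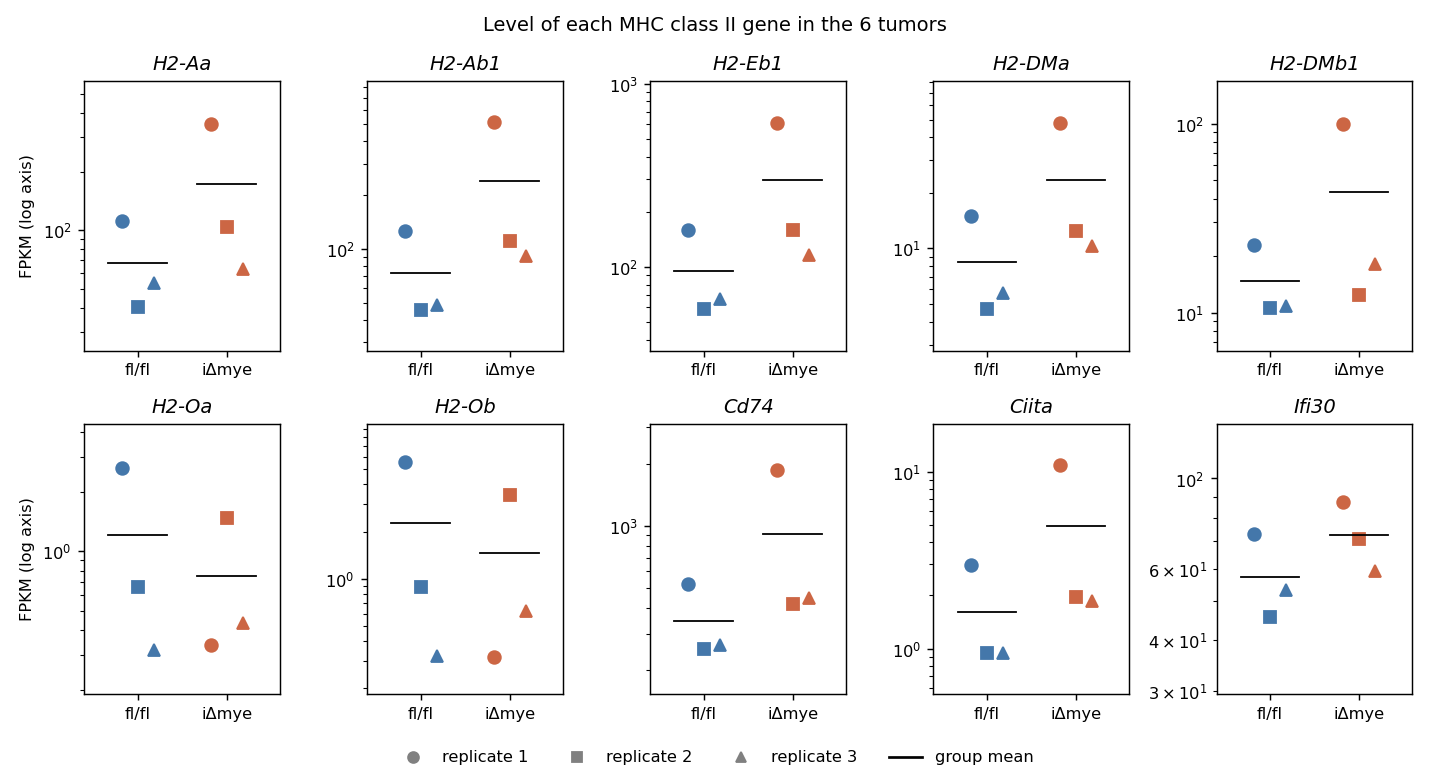
FPKM (log axis, 1 panel per gene) of the 10 members in 3 Tmem173fl/fl tumors (blue) and 3 Tmem173iΔmye tumors (orange), with symbols for the replicate number and black lines for group means. Tmem173iΔmye replicate 1 is the highest tumor in 8 panels, Tmem173fl/fl replicate 1 is the highest for H2-Oa and H2-Ob, and the groups overlap in every panel.

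The classical chains had positive fold changes that did not pass correction and that were much smaller without 1 tumor. H2-Ab1, the β chain of I-A, was measured at 209.6, 74.3 and 80.2 CPM in replicates 1, 2 and 3 of Tmem173fl/fl and at 842.8, 182.1 and 150.3 CPM in those of Tmem173iΔmye. Replicate 1 was the highest tumor of each group, and the Tmem173fl/fl replicate 1 lay above Tmem173iΔmye replicates 2 and 3, so the groups overlapped. The log2 fold change (log2FC, Tmem173iΔmye over Tmem173fl/fl throughout) of H2-Ab1 was 1.69 (SE 0.72). The quasi-likelihood test of edgeR gave an unadjusted p = 0.047 and, by the Benjamini-Hochberg method over all 16426 genes, an adjusted p = 0.742. H2-Eb1, the β chain of I-E, had 191.6, 69.3 and 79.6 CPM in Tmem173fl/fl and 728.0, 190.2 and 137.8 CPM in Tmem173iΔmye tumors. The overlap was narrow here, since Tmem173fl/fl replicate 1 was barely above Tmem173iΔmye replicate 2, and the log2FC was 1.63 (SE 0.67, edgeR unadjusted p = 0.041 and adjusted p = 0.742). H2-Aa, the α chain of I-A, had 211.0, 75.1 and 101.1 CPM in Tmem173fl/fl and 655.9, 195.3 and 119.2 CPM in Tmem173iΔmye tumors. Here too Tmem173fl/fl replicate 1 lay above Tmem173iΔmye replicates 2 and 3, and its log2FC was 1.33 (SE 0.65, edgeR adjusted p = 0.742). Without Tmem173iΔmye replicate 1, the log2FC values became 0.45 (SE 0.45) for H2-Ab1, 0.53 (SE 0.43) for H2-Eb1 and 0.28 (SE 0.44) for H2-Aa.

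The α chain that pairs with H2-Eb1 was listed only as the pseudogene H2-Ea-ps, with 2 counts in Tmem173iΔmye replicate 2 and 0 counts in the other 5 tumors. C57BL/6 strains carry an H2 haplotype that does not express this chain. H2-Eb1 RNA was thus measured at a level near that of H2-Ab1 with at most 2 counts of its partner in any tumor.

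Cd74, the invariant chain, had 747.7, 356.5 and 374.4 CPM in Tmem173fl/fl and 2648.9, 591.5 and 630.1 CPM in Tmem173iΔmye tumors. Tmem173iΔmye replicate 1 had 3.54 times the level of the second highest tumor, which was Tmem173fl/fl replicate 1. The log2FC of Cd74 was 1.39 (SE 0.61, edgeR adjusted p = 0.742), and 0.31 (SE 0.33) without Tmem173iΔmye replicate 1. In that tumor Cd74 ranked 12 by FPKM among all genes listed.

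Ciita, the transactivator of class II genes, was low and followed the same order. It had 28.7, 8.93 and 9.06 CPM in Tmem173fl/fl and 104.6, 18.8 and 17.8 CPM in Tmem173iΔmye tumors. The 2 lowest tumors were Tmem173fl/fl replicates 2 and 3, and Tmem173fl/fl replicate 1 again lay between Tmem173iΔmye replicate 1 and the other 2 of that group. The log2FC of Ciita was 1.59 (SE 0.78, edgeR adjusted p = 0.742) and 0.23 (SE 0.52) without Tmem173iΔmye replicate 1. Over 25888 bases Ciita overlaps Dexi on the opposite strand, and the library kit does not mark strand, so reads in the overlap cannot be assigned by strand (Dexi was counted at 263 to 486 reads per tumor).

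H2-DM, which loads peptides onto class II, was measured through both its chains. H2-DMa had 24.8, 7.67 and 9.42 CPM in Tmem173fl/fl and 79.0, 20.6 and 16.9 CPM in Tmem173iΔmye tumors, and a log2FC of 1.48 (SE 0.68, edgeR adjusted p = 0.742). H2-DMb1 had 34.3, 15.7 and 16.3 CPM in Tmem173fl/fl and 148.7, 18.6 and 26.9 CPM in Tmem173iΔmye tumors, and a log2FC of 1.55 (SE 0.76, edgeR adjusted p = 0.742). Among the 8 members highest in Tmem173iΔmye replicate 1, H2-DMb1 showed the widest gap between that tumor and the second highest tumor, at 4.34 times, and its log2FC fell the closest to 0 without that tumor, to 0.04 (SE 0.38), against 0.42 (SE 0.49) for H2-DMa.

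H2-O, the inhibitor of H2-DM, differed from the classical chains in Tmem173iΔmye replicate 1. H2-Ob had 17.9, 2.80 and 1.02 CPM in Tmem173fl/fl and 1.01, 10.9 and 1.97 CPM in Tmem173iΔmye tumors. Its high tumors were Tmem173fl/fl replicate 1 and Tmem173iΔmye replicate 2, and Tmem173iΔmye replicate 1, the highest for every classical chain, was lowest together with Tmem173fl/fl replicate 3. H2-Oa had 3.51, 0.867 and 0.420 CPM in Tmem173fl/fl and 0.442, 1.95 and 0.573 CPM in Tmem173iΔmye tumors, from 7 to 54 counts. The same 2 tumors were high. The log2FC values were -0.64 (SE 1.13, adjusted p = 0.894) for H2-Ob and -0.68 (SE 0.87, adjusted p = 0.850) for H2-Oa by edgeR's test, and both turned positive without Tmem173fl/fl replicate 1, at 1.28 for H2-Ob and 0.62 for H2-Oa.

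Ifi30, the lysosomal thiol reductase that opens disulfide bonds of antigens, varied least. It had 72.8, 44.7 and 52.3 CPM in Tmem173fl/fl and 86.3, 70.0 and 58.5 CPM in Tmem173iΔmye tumors. The order of the tumors was that of the classical chains, but the highest tumor had only 1.93 times the level of the lowest, against 7.43 (Cd74) to 17.7 (H2-Ob) times for the other members. Its log2FC was 0.34 (SE 0.22, edgeR adjusted p = 0.756) and 0.18 (SE 0.23) without Tmem173iΔmye replicate 1.

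As a list, 8 of 10 members had a log2FC above 0, as did 49.4% of all genes tested, and their median was 1.43, with a median of -0.00415 over all genes. Log2FC values of 1 or more were found for 7 of 10 members and for 3.12% of all genes tested. At an unadjusted p under 0.05, edgeR called 2 of 10 members (H2-Ab1 and H2-Eb1), both with higher values in Tmem173iΔmye, beside 3.23% of all genes called in that direction. At the same limit DESeq2 called 0 members, beside 6.65% of all genes in either direction. In the other direction 0 members were called, beside 2.9% of all genes. These 2 members also had a log2FC of 1 or more, limits that 1.26% of all genes passed with higher values and 2.12% in either direction. At an adjusted p under 0.05, 0 members and 0% of all genes were called by edgeR, while 1008 genes (6.14%) had an unadjusted p under 0.05, and DESeq2 called 28 genes and 0 members. For 0 members did the groups stand apart with all Tmem173iΔmye tumors above, as they did for 6.03% of all genes, or below, as for 6.47%. Without Tmem173iΔmye replicate 1 the median of the members was 0.25, and 0 had an unadjusted p under 0.05, beside 3.5% of all genes in that fit. With the Y-linked reads as a term the median was 0.97, and 0 had an unadjusted p under 0.05, beside 3.37% of all genes in that fit.

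**Figure D3:**
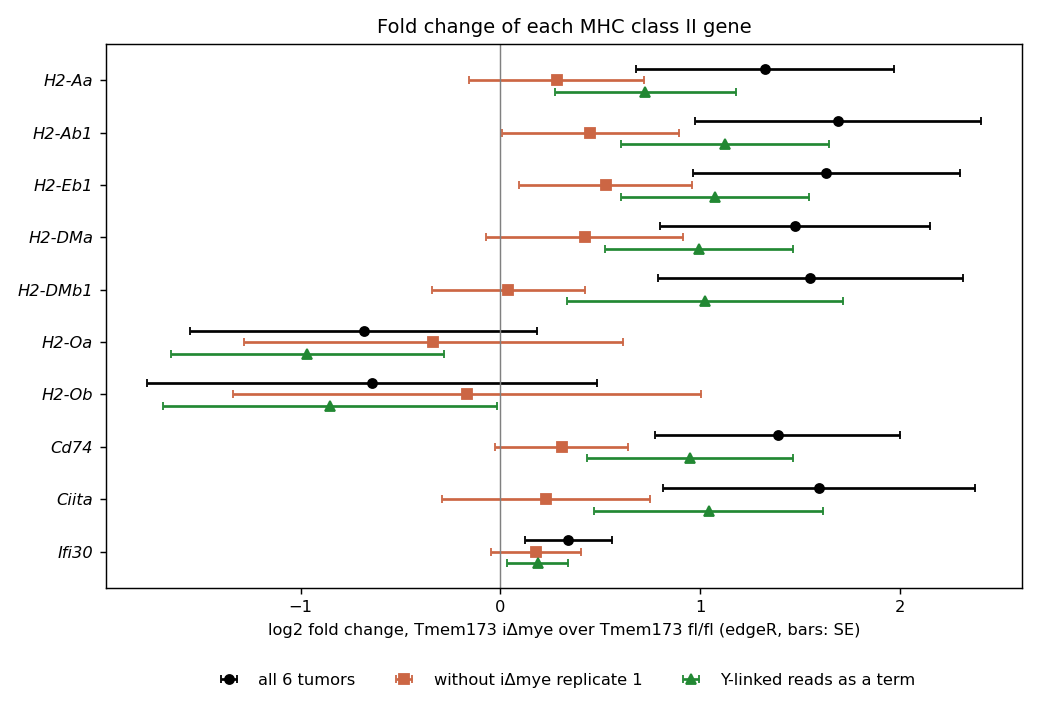
Log2FC of each member (Tmem173iΔmye over Tmem173fl/fl, edgeR) with its SE, for all 6 tumors (black), without Tmem173iΔmye replicate 1 (orange) and with the Y-linked reads as a term (green). Without that tumor, values for the 8 members above 0 fall to between 0.04 and 0.53, and H2-Oa and H2-Ob stay below 0 in all 3 fits.

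Behind these fold changes lay 1 order of the tumors. In 8 of 10 members, all but H2-Oa and H2-Ob, Tmem173iΔmye replicate 1 was highest and Tmem173fl/fl replicate 1 came next. Tmem173iΔmye replicates 2 and 3 followed, and Tmem173fl/fl replicates 2 and 3 were lowest. This order, noticed in the members first, was found in 630 (3.84%) of all genes tested. When Tmem173fl/fl replicate 1 was left out, every Tmem173iΔmye tumor was above both remaining Tmem173fl/fl tumors in the same 8 members, as in 16.3% of all genes tested. The median log2FC of the members was then 1.95, with 7 of 10 at an unadjusted p under 0.05, beside 10.1% of all genes in that fit, and 0 at an adjusted p under 0.05 by edgeR's test.

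**Figure D4:**
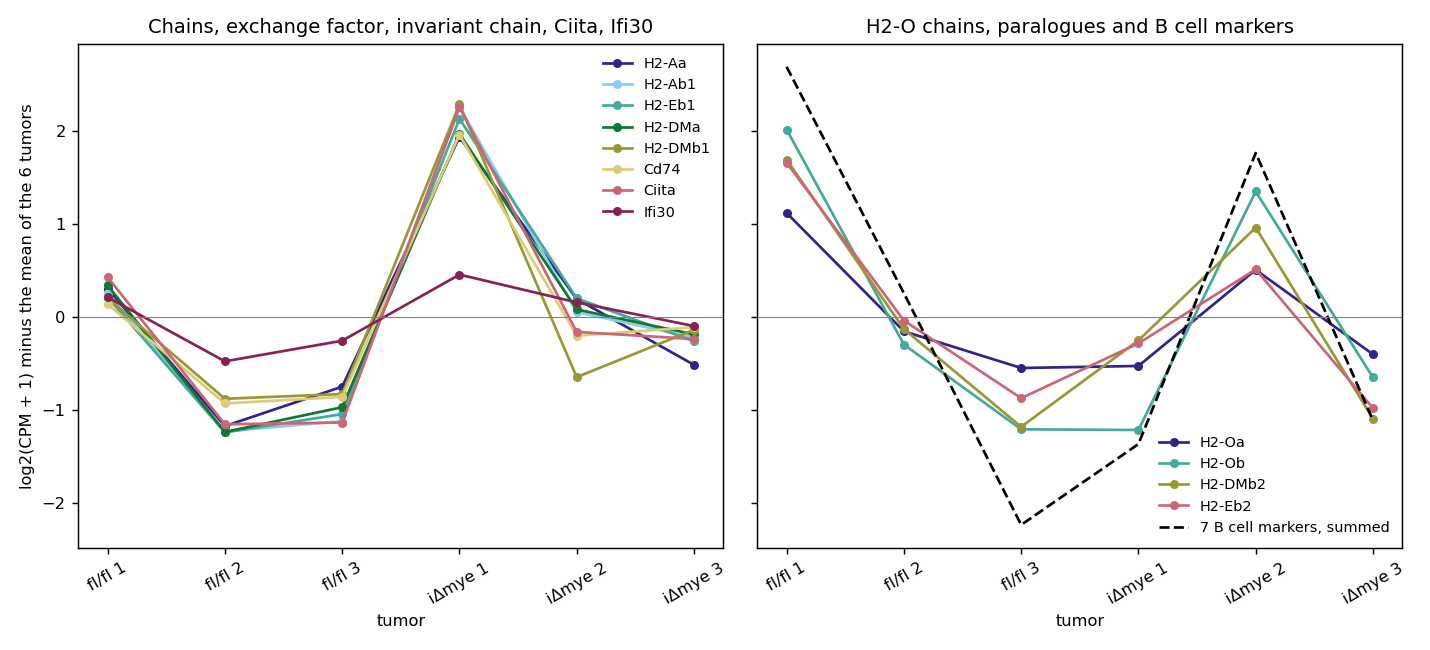
Level of each gene in the 6 tumors as log2(CPM + 1) minus its mean over the tumors, for H2-Aa, H2-Ab1, H2-Eb1, H2-DMa, H2-DMb1, Cd74, Ciita and Ifi30 (left) and for H2-Oa, H2-Ob, H2-DMb2, H2-Eb2 and the summed B cell markers (right, dashed). The genes on the left peak in Tmem173iΔmye replicate 1, and those on the right are highest in Tmem173fl/fl replicate 1 and next in Tmem173iΔmye replicate 2.

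The spread within groups was wide for these genes. The within-group SD on the log2(CPM + 1) scale was between 0.73 and 1.51 for 9 members, which lay at the 96.0th to 99.6th percentile of all genes tested, where the median SD was 0.23. Ifi30, with an SD of 0.32, lay at the 69.7th percentile. Every tumor with Y-linked reads was above every tumor without them in 6 of 10 members (H2-Aa, H2-Ab1, H2-Eb1, H2-DMa, Ciita and Ifi30), as in 1594 (9.7%) of all genes. Within the 3 tumors with Y-linked reads the difference between the group means of log2(CPM + 1) of H2-Ab1 was 0.90, and within the 3 without them it was 0.95. For Ciita these differences were 0.62 and 0.91, and for H2-Ob -1.95 and 0.10, each with 1 tumor on one side. The part of the Y-linked split in the fold changes was not tested beyond the fit with that term.

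The classical chains, Cd74, H2-DM and Ciita kept similar proportions to each other while their levels moved. The 6 tumors are the only points and include Tmem173iΔmye replicate 1, the highest in Ciita. Over them, Pearson's r of log2(CPM + 1) with Ciita was 0.975 for H2-Aa, 0.995 for H2-Ab1, 0.987 for H2-Eb1 and 0.992 for H2-DMa. It was 0.970 for H2-DMb1, 0.993 for Cd74 and 0.910 for Ifi30, and 0.02 for H2-Oa and -0.03 for H2-Ob. Over the 5 tumors without Tmem173iΔmye replicate 1, r with Ciita was between 0.888 (H2-DMb1) and 0.985 (Cd74) for the first 7 and 0.804 for H2-Oa and 0.815 for H2-Ob. The values near 0 for H2-O over all 6 tumors thus rest on that tumor. Among the other 5, Tmem173iΔmye replicates 2 and 3 still had similar Ciita (18.8 and 17.8 CPM) and unlike H2-Ob (10.9 and 1.97 CPM). The FPKM sum of the 3 classical chains was 133.5 to 191.0 times that of Ciita, with the lowest ratios in both replicates 1, which had the most Ciita in their groups. H2-Ab1 had 0.908 to 1.47 times the FPKM of H2-Aa, and Cd74 had 1.12 to 1.76 times the sum of the classical chains. H2-DMb1 had 0.997 to 2.26 times the FPKM of H2-DMa. By contrast, the ratio of H2-DM to H2-O (FPKM sums of both chains) was 4.58, 9.84 and 26.0 in Tmem173fl/fl and 225.9, 5.07 and 26.8 in Tmem173iΔmye tumors, so that it differed widely between tumors of the same genotype.

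H2-Oa and H2-Ob were high in the tumors with the most B cell marker reads. The CPM sum of 7 markers (Cd79a, Cd79b, Ms4a1, Pax5, Cd22, Cr2 and Fcer2a) was 140.7, 25.2 and 3.66 in Tmem173fl/fl and 7.51, 73.5 and 9.17 in Tmem173iΔmye tumors. Its high tumors were those of H2-O, and r over the 6 tumors was 0.965 for H2-Oa and 0.975 for H2-Ob, while it was 0.02 for Ciita. Without Tmem173iΔmye replicate 1 these values were 0.960, 0.975 and 0.724, over 5 tumors. H2-DMb2, the second H2-DM β chain, had 16.4, 3.93 and 1.38 CPM in Tmem173fl/fl and 3.54, 9.51 and 1.53 CPM in Tmem173iΔmye tumors (r 0.952 with the B cell markers). H2-Eb2 followed too, at 7.22, 1.53 and 0.42 CPM and at 1.14, 2.71 and 0.32 CPM (r 0.930). The log2FC values were -0.58 (SE 0.92) for H2-DMb2 and -1.13 (SE 1.03) for H2-Eb2, and 0 of these 2 paralogues passed the test. Reads of near-identical copies can be split between H2-DMb1 and H2-DMb2 by the authors' counting, and values of both are uncertain to that extent. H2-DMb2 had 0.0206 to 0.445 times the FPKM of H2-DMb1.

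Like H2-O, all 7 B cell markers had a log2FC below 0, and none had an unadjusted p under 0.05 (lowest edgeR unadjusted p = 0.341). Leaving out the 2 tumors with the most B cell marker reads, Tmem173fl/fl replicate 1 and Tmem173iΔmye replicate 2, a choice made after the values were seen, gave a median of 2.31 for the members, with 7 of 10 at an unadjusted p under 0.05, beside 7.64% of all genes in that fit, and 0 at an adjusted p under 0.05. The log2FC values of H2-Oa and H2-Ob were then -0.33 (SE 0.74) and -0.35 (SE 0.68). With these 2 tumors left out, each group held 2. The fit also lost the Tmem173fl/fl tumor highest in the classical chains, so it cannot tell B cells from the class II level of that tumor. The part of B cells in these results was not tested.

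Summed markers of other cell types differed less between tumors than the summed B cell markers (3.66 to 140.7 CPM). Among the single tested markers of these types, Cd3d spanned the most, with 11.97 times its lowest CPM in its highest tumor. The CPM sum of 10 macrophage markers was 297.2 to 407.8 in Tmem173fl/fl and 321.6 to 474.5 in Tmem173iΔmye tumors, and Tmem173iΔmye replicates 1 and 2 had nearly equal sums (474.5 and 471.3), while H2-Ab1 was at 842.8 and 182.1 CPM in them. Of these markers 7 of 10 were above 0, with a median log2FC of 0.12, and 0 had an unadjusted p under 0.05. Of 8 dendritic cell markers only 3 (Itgax, Batf3 and Ccr7) were tested, and Cd209a was at 0 counts in 4 tumors. The 8 dendritic cell markers summed to 22.6 to 38.4 CPM in Tmem173fl/fl and 30.9 to 45.9 in Tmem173iΔmye tumors. The 8 colon epithelial markers summed to 10470 to 11823 CPM in Tmem173fl/fl and 11367 to 12632 in Tmem173iΔmye tumors, so colon epithelium was present in every library. All 8 were above 0, of which Vil1 had an unadjusted p under 0.05. The 6 T cell markers summed to 16.4 to 28.02 CPM and 19.2 to 32.8 CPM. Trac was the T cell marker with an unadjusted p under 0.05, and 5 of 6 were above 0. The part of these cells in the class II values was not tested.

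Relative to Ptprc, the marker of all leukocytes (CD45), the classical chains were alike between the Tmem173fl/fl tumors. The FPKM sum of the 3 classical chains was 123.6, 117.0 and 125.5 times that of Ptprc in Tmem173fl/fl and 636.8, 160.7 and 169.9 times in Tmem173iΔmye tumors. The Tmem173fl/fl ratios lay close together and all below those of Tmem173iΔmye, and Tmem173iΔmye replicate 1 remained far above the rest. Ptprc itself had 59.6, 22.5 and 24.8 CPM in Tmem173fl/fl and 42.6, 42.8 and 29.3 CPM in Tmem173iΔmye tumors, with Tmem173fl/fl replicate 1 the highest. Over Csf1r, a macrophage marker, the same sum was 32.2, 10.6 and 12.2 times in Tmem173fl/fl and 112.0, 21.3 and 26.2 times in Tmem173iΔmye tumors. With this denominator the groups overlapped, since Tmem173fl/fl replicate 1 lay above Tmem173iΔmye replicates 2 and 3. Both ratios were formed after the values of their parts were seen and are given without a test. How many other genes set the groups apart when divided by Ptprc was not counted.

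**Figure D5:**
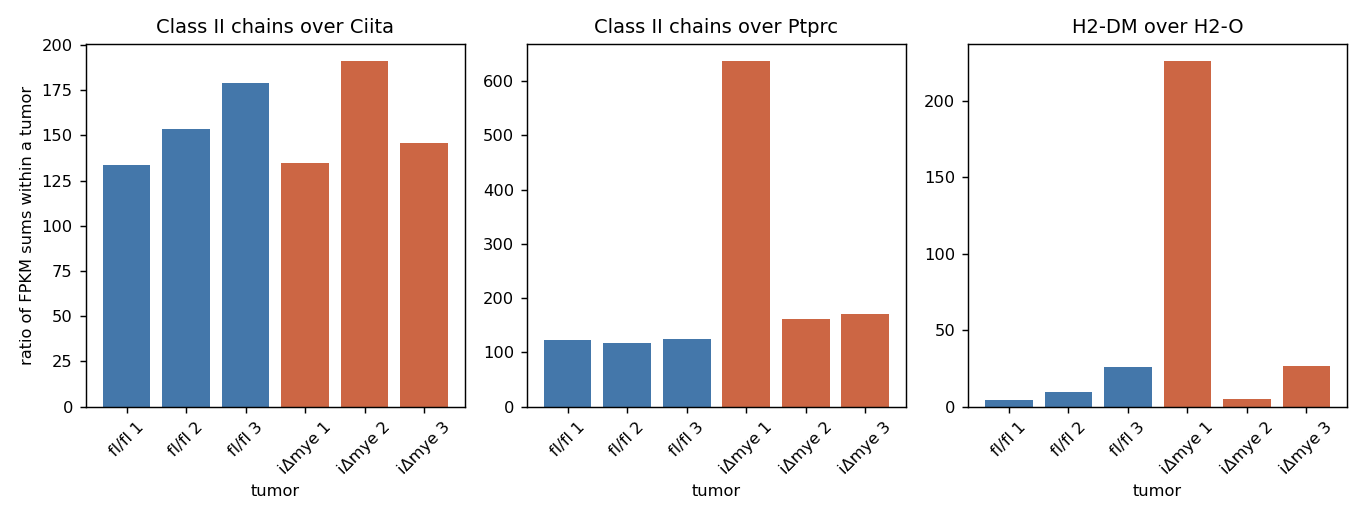
Ratios of FPKM sums within each tumor (bars from 0, Tmem173fl/fl blue and Tmem173iΔmye orange) for H2-Aa, H2-Ab1 and H2-Eb1 together over Ciita (left) or over Ptprc (middle), and for H2-DMa plus H2-DMb1 over H2-Oa plus H2-Ob (right). The first ratio stays between 133.5 and 191.0, while the others reach 636.8 and 225.9 in Tmem173iΔmye replicate 1.

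The interferon-γ axis upstream of Ciita was read next, from the ligand to the feedback inhibitor. Ifng had 0, 0 and 2 counts in Tmem173fl/fl and 50, 0 and 3 counts in Tmem173iΔmye tumors, under the level for testing, with the 50 counts in Tmem173iΔmye replicate 1. Irf1, an interferon-induced factor that acts on the Ciita promoter, had 174.1, 84.1 and 115.7 CPM in Tmem173fl/fl and 359.5, 139.7 and 163.9 CPM in Tmem173iΔmye tumors, and a log2FC of 0.83 (SE 0.40, edgeR adjusted p = 0.742). Socs1, the feedback inhibitor of the receptor's kinases, had a log2FC of 1.08 (SE 0.53). For Irf1 and Socs1 alike, Tmem173iΔmye replicate 1 was the highest tumor, and the groups overlapped. Without it the log2FC values were 0.28 (SE 0.29) for Irf1 and 0.16 (SE 0.30) for Socs1. The receptor chains and kinases had fold changes near 0, with log2 values of 0.00 (SE 0.22) for Ifngr1, -0.13 (SE 0.16) for Ifngr2, -0.08 (SE 0.13) for Jak1 and -0.14 (SE 0.12) for Jak2.

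Together 35 genes of the class II pathway beside the members were found, of which 33 were tested. Of these 23 were above 0, with a median of 0.13. By edgeR 0 had an unadjusted p under 0.05, beside 6.14% of all genes tested. DESeq2 called 2 at that limit, beside 6.65% of all genes. In the promoter complex that Ciita joins, 5 of 7 genes were above 0 and the median was 0.11, with Rfxank at 0.24 (SE 0.19) and Creb1 at -0.23 (SE 0.20). Among 4 other regulators of Ciita, Irf8 had a log2FC of 0.48 (SE 0.34) and Irf4 of 0.35 (SE 0.53). Of 6 endosomal proteases 5 were above 0, among them Ctss, the protease that trims Cd74, at 0.38 (SE 0.27) and Ctsd at 0.23 (SE 0.13). March1 and March8, ubiquitin ligases that send class II for degradation, had values of 0.05 (SE 0.34) and 0.06 (SE 0.13). Among 4 co-stimulatory ligands, Cd80 was at 0.45 (SE 0.32) and Icosl at -0.27 (SE 0.23). Cd4 and Lag3, the T cell receptors that bind class II itself, were at 0.14 (SE 0.33) and 0.15 (SE 0.34).

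By position, 7 members lie in 223.86 kb of chromosome 17 (34092340 to 34316199, GRCm38), the class II region of the H2 complex. Outside it lie Ciita on chromosome 16 (10480059 to 10528418, plus strand), Cd74 on chromosome 18 (60803848 to 60812646, plus strand) and Ifi30 on chromosome 8 (70762774 to 70766663, minus strand). Between the members on chromosome 17 lie 8 other tested genes, of which 7 were above 0, with a median log2FC of 1.10. At an unadjusted p under 0.05 were 2 of these 8, beside 6.14% of all genes tested, both named after their values were seen. They were Psmb9, a subunit of the immunoproteasome, at 1.70 (SE 0.71, edgeR adjusted p = 0.742) and Gm20496 at 1.49 (SE 0.61, edgeR adjusted p = 0.742). Gm20496, at a mean of 0.62 FPKM, is an antisense gene that overlaps Psmb8 and Tap2. Since the kit does not mark strand, its reads cannot be told from theirs in the overlaps. Without Tmem173iΔmye replicate 1 the median of the 8 genes was 0.23, with Psmb9 at 0.57 (SE 0.50) and 0 genes at an unadjusted p under 0.05. Tap1 and Tap2, the peptide transporter of class I, were at 1.30 (SE 0.60) and 0.91 (SE 0.44). Brd2, a chromatin protein in the same interval, was at 0.07 (SE 0.13), and H2-Oa, H2-Ob and H2-DMb2 in it were below 0.

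Outside all lists, the 8 genes most like the members by Pearson's r with their mean centred profile over the 6 tumors (r from 0.994 to 0.999) were Gm5781, Gm4149, Sec61b, Atp5f1, Cycs, Lsm4, Rps19bp1 and Atp5k. Gm5781 was near the floor, at 0 CPM in Tmem173fl/fl replicates 2 and 3 and at most 1.01 CPM, so its r rests on few reads. Sec61b, a subunit of the protein channel of the endoplasmic reticulum, had 126.2, 50.1 and 56.5 CPM in Tmem173fl/fl and 197.1, 99.9 and 80.4 CPM in Tmem173iΔmye tumors. Cycs, cytochrome c, had 121.6, 73.0 and 72.9 CPM and 180.8, 104.2 and 93.5 CPM. Both shared the order of the tumors described for the 8 members, which follows from their choice by r and is no separate result. Their log2FC values were 0.70 (SE 0.44) and 0.50 (SE 0.30), or 0.21 (SE 0.39) and 0.15 (SE 0.25) without Tmem173iΔmye replicate 1.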

How the data were processed

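RNA-seq libraries were made from poly(A) RNA of 6 tumors. Per the labels, the submitters' processing notes name CASAVA 1.8, fastp, HISAT2 2.0.5, featureCounts 1.5.0-p3, DESeq2 1.20.0 and GRCm38. The deposited table holds the authors' raw counts and their FPKM values, and its columns of their own fold changes and p-values were not used. For the tests, edgeR 4.0.16 under R 4.3.3 was run on the counts (quasi-likelihood, TMM, group as the only term, Benjamini-Hochberg) over genes whose mean FPKM reached 0.5, and SE is the absolute log2 fold change over the square root of F. Alternatives were DESeq2 1.42.0, limma 3.58.1 (voom, and log2(FPKM + 1) or log2(FPKM + 0.1)), other filters and scaling, a replicate block, Y-linked reads as a term and each tumor left out. Scripts were tested on simulated data. Values of 3 counts or fewer carry no fold change, for counting error alone. Named are all members, all paralogues, interferon-γ and T cell receptor genes (some genes of the lists are not reported here), the 2 genes with the lowest p-values of each other pathway list, and the 8 genes most like the members. The members and lists were chosen with earlier results of these data known. The limit for a large change is an absolute log2FC of 1 or more with an unadjusted p under 0.05, after the study's methods.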

Additional observations from a re-analysis of the deposited data

How the results depend on the processing

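The median log2 fold change of the members stayed above 0 in every alternative run. It ranged from 0.255 (without Tmem173iΔmye replicate 1) to 1.95 (without Tmem173fl/fl replicate 1) when 1 tumor was left out, and was 2.31 without the 2 tumors richest in B cell markers, an alternative added after the values were seen. Of 159 alternative values for single members, 157 kept their direction and their side of the adjusted limit, and 2 reversed without Tmem173fl/fl replicate 1. No member came near that limit in any fit (lowest adjusted p = 0.240, edgeR with a replicate block), so keeping its side says little. A kept direction does not mean a kept size, as H2-DMb1 went from 1.55 to 0.04 without Tmem173iΔmye replicate 1. With 1 tumor left out the log2FC of H2-Oa ranged from -1.64 to 0.62 and that of H2-Ob from -2.27 to 1.28. Members with an absolute log2FC of 1 or more at an unadjusted p under 0.05 numbered 2, and 7 with no filter, 1 with a mean FPKM of at least 1, 0 with DESeq2, limma voom, limma on FPKM with either pseudocount or the Y-linked term, 0 to 7 when 1 tumor was left out, and 7 without the 2 tumors richest in B cell markers. Over all genes these limits gave 349 calls, and 872 with no filter, 136 with limma on log2(FPKM + 1), 211 with the Y-linked term, 218 to 636 with 1 tumor left out and 719 without the B cell-rich tumors. At an adjusted p under 0.05 edgeR called 0 genes, and 6 with no filter, 28 with DESeq2 and 0 to 1 with 1 tumor left out, and members were at 0 throughout. Pathway genes with an unadjusted p under 0.05 numbered 0, and 3 with no filter, 2 with DESeq2, 1 with the Y-linked term, 0 to 2 with 1 tumor left out and 3 without the B cell-rich tumors. The shares of all genes at that limit were 6.14%, and 5.63% with no filter, 6.65% with DESeq2 and 3.37% with the Y-linked term. They were 3.26% to 10.1% with 1 tumor left out and 7.64% without the B cell-rich tumors.

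In a fit with a replicate block, the median of the members was 1.10, and 7 members and 377 of 16426 genes passed both limits. In that fit 2 pathway genes had an unadjusted p under 0.05, beside 9.16% of all genes. Deviations of same-numbered tumors correlated at 0.315, 0.00846 and 0.154, so the numbers were not taken to pair the tumors, and replicates 2 and 3 of Tmem173iΔmye and replicate 2 of Tmem173fl/fl did not correlate best with their own number. Depth limits H2-Oa and Ifng, with 7 and 0 counts in their lowest tumors. The causes of these shifts were not tested.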
